A study of Mus musculus with 6 samples.

Results

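The glucocorticoid receptor gene Nr3c1 and 9 genes around it were followed in the livers of mice that had undergone vertical sleeve gastrectomy (VSG), which removes a large part of the stomach. The members were Nr3c1, Hsd11b1, Serpina6, Fkbp5, Tsc22d3, Per1, Sgk1, Klf9, Zbtb16 and Cebpb. They were found by their symbols in GENCODE M21 after matching the gene identifiers of the count table, and make up 10 of its 55385 genes. All 10 passed the filter on low counts, as did 14454 genes in all. The livers came from male C57BL/6 mice that entered the study at 6 to 8 weeks of age and received a high-fat diet for 10 weeks. The mice then had VSG or a sham operation and stayed on the high-fat diet for another 12 weeks. The labels name no genetic change, and the operation is what sets the groups apart. Poly(A) RNA from about 40 mg of liver was sequenced from 3 sham mice (replicates 1, 2 and 3) and 3 VSG mice (replicates 4, 5 and 6). The time of day and the feeding state at collection were not given for these mice in the sources used here.

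Glucocorticoids are adrenal steroid hormones, and corticosterone is the main one in mice. The receptor waits in the cytoplasm in a complex of Hsp90 and co-chaperones, moves to the nucleus when it binds the hormone, and there binds DNA and coregulators. In the liver it is known for inducing genes of gluconeogenesis and amino acid breakdown and for restraining inflammatory genes. The hormone that reaches it depends on carriage in blood by the product of Serpina6 and on regeneration inside the cell by the product of Hsd11b1. Fkbp5, Tsc22d3, Per1, Sgk1, Klf9 and Zbtb16 are widely used as genes that the hormone induces, and Cebpb encodes a liver transcription factor that is itself induced by it.

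Values are counts relative to library size (CPM), with libraries scaled by TMM factors, and log2 fold changes are VSG over sham with their standard error (SE). A gene passed the test when its adjusted p in edgeR's quasi-likelihood test was under 0.05. In this comparison 14.7% of all genes tested passed, 6.79% as higher after VSG and 7.87% as lower, and in 39.7% the 3 libraries of a group all lay above the 3 of the other. Total counts ran from 22804397 to 24191778 per library, and mitochondrial genes took 5.59% to 6.58% of the counts in sham and 4.14% to 5.01% in VSG libraries. Of the hepatocyte markers, 9 of the 10 listed were found in the table and their summed level was 71179 to 115978 CPM in sham and 65214 to 94844 CPM in VSG libraries. Without Fgb, an acute phase gene as well, the sum over the other 8 was 68043 to 113073 CPM in sham and 49430 to 82036 CPM in VSG libraries, and none of them passed the test, though the 3 sham libraries lay above the 3 VSG libraries for Ttr, Apoa2 and Ass1, named after their values were seen (log2 fold changes -0.83, -0.84 and -0.61, adjusted p = 0.103, 0.110 and 0.121, edgeR). Alb, the albumin gene, was between 35829 and 81833 CPM in every library.

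No member passed the test with edgeR, and 3 of 10 had an unadjusted p under 0.05, against 33.9% of all genes tested. DESeq2 put 2 members below 0.05 after adjustment, as it did 3252 of 17381 genes in all, a like share, while limma-voom and limma on log2(FPKM + 1) put none there. Log2 fold changes were negative for 8 members and positive for 2, Nr3c1 and Klf9, with a median of -0.65 against 0.03 over all genes tested. This split of signs depended on sham replicate 2. Without that library Hsd11b1, Fkbp5 and Cebpb turned positive (0.11, 0.54 and 0.12), and Tsc22d3 moved to -0.28. The other members kept their sign in every alternative fit. The members' median without sham replicate 2 was not computed. With unscaled library totals (no TMM factors), the median over all genes tested moved to -0.11. The 3 libraries of a group all lay above the 3 of the other in 4 of 10 members, Nr3c1, Serpina6, Per1 and Sgk1, a share close to the 39.7% of all genes. The 95% intervals were wide, the narrowest -0.02 to 0.56 on the log2 scale for Nr3c1 and the widest -2.98 to 0.69 for Zbtb16.

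**Figure D1:**
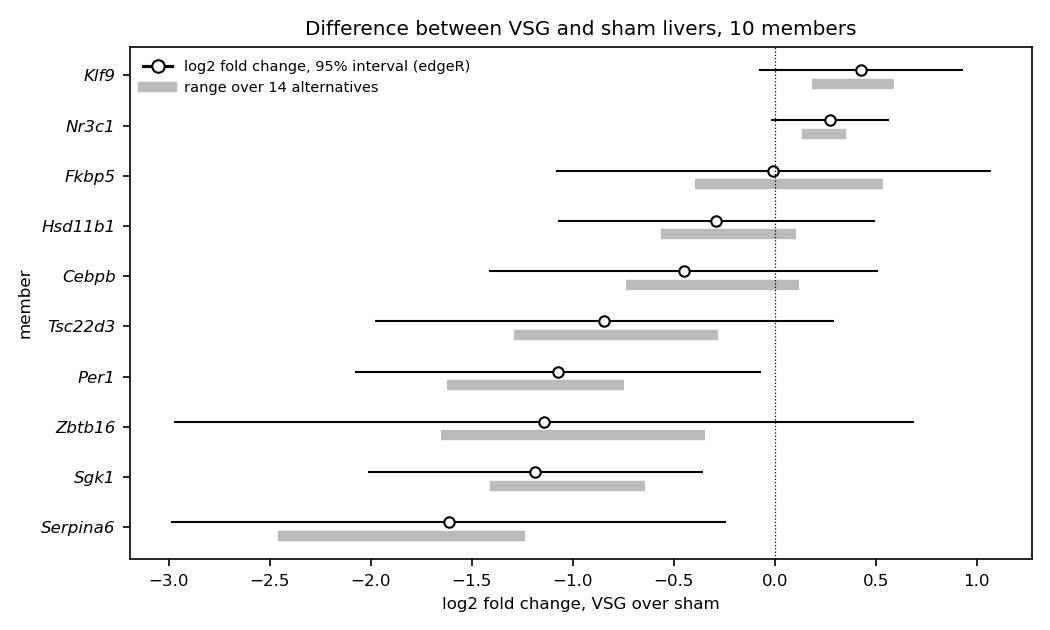
Log2 fold change of the 10 members, VSG over sham. Circles and lines are edgeR's estimate and its 95% interval, and grey bars give the lowest and highest estimate over 14 other ways of fitting or leaving out a library. The intervals of Serpina6, Sgk1 and Per1 lie below 0, though none of these 3 passed after adjustment, and the grey bars of Fkbp5, Hsd11b1 and Cebpb cross 0.

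Nr3c1 encodes the receptor itself and lies on chromosome 18. Its level was 119, 122 and 104 CPM in sham replicates 1, 2 and 3, and 123, 149 and 145 CPM in VSG replicates 4, 5 and 6. The 3 VSG libraries lay above the 3 sham libraries, but VSG replicate 4 exceeded sham replicate 2 by less than the spread within either group. Nr3c1 averaged 115 ± 9.84 CPM after the sham operation and 139 ± 13.7 CPM after VSG (SD, n = 3). The log2 fold change was 0.27 (SE 0.122, 95% interval -0.02 to 0.56) and did not pass the test (adjusted p = 0.169, edgeR). Over the 14 alternatives it ran from 0.13 to 0.35 and passed in none. Nr3c1 was the steadiest member, with a highest library 1.43 times the lowest. RNA was taken from whole tissue, so fewer cells of a type and less RNA per cell cannot be told apart for this gene or any below.

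Nr3c2, the mineralocorticoid receptor gene, whose product binds the same hormone, was 30.8, 33.2 and 27.8 CPM against 8.69, 31.5 and 15.4 CPM. Its log2 fold change of -0.72 did not pass the test (adjusted p = 0.264, edgeR). VSG replicate 5 was at the sham level while the other VSG libraries were lower. Without VSG replicate 5 the log2 fold change of Nr3c2 was -1.36 and passed (adjusted p = 0.0210, edgeR). The smallest difference in a fit without a library was -0.38, which did not pass.

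The supply of hormone to the receptor is set in part by Hsd11b1 (chr1:193221634-193264075, minus strand, positions here and below in GRCm38), whose enzyme turns inactive 11-dehydrocorticosterone back into corticosterone inside the cell. Its level was 237, 597 and 373 CPM in sham replicates 1, 2 and 3, and 271, 348 and 368 CPM in VSG replicates 4, 5 and 6. Sham replicate 2 stood above the other 5 libraries, and sham replicate 1 was the lowest of all. The log2 fold change was -0.29 (SE 0.330, adjusted p = 0.561, edgeR), and it turned to 0.11 without sham replicate 2.

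H6pd encodes the enzyme that makes the NADPH which Hsd11b1 uses. It was 419, 423 and 446 CPM in sham replicates 1, 2 and 3, and 629, 709 and 670 CPM in VSG replicates 4, 5 and 6. The groups did not overlap, and the mean rose from 429 ± 14.8 CPM to 669 ± 39.96 CPM (SD, n = 3). H6pd had a log2 difference of 0.64 (SE 0.130, adjusted p = 0.0263, edgeR). It was no longer past the threshold with unscaled library totals (adjusted p = 0.0766) or without any sham replicate or VSG replicate 6 (adjusted p from 0.0731 to 0.117). Hsd11b2, the enzyme that inactivates the hormone in kidney, had 0 counts in every library, which allows up to 3 counts, or 0.111 to 0.143 CPM.

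Serpina6 (chr12:103646630-103657212, minus strand) encodes corticosteroid-binding globulin, which hepatocytes secrete and which carries the hormone in blood. Its level was 234, 489 and 289 CPM in sham replicates 1, 2 and 3, and 44.1, 206 and 79.7 CPM in VSG replicates 4, 5 and 6. All 3 VSG libraries lay below the lowest sham library, and the VSG libraries differed among themselves by up to 4.68 times. Its log2 fold change was -1.61 (SE 0.578, 95% interval -2.99 to -0.24), a level 3.06-fold lower after VSG, which did not pass the test (adjusted p = 0.104, edgeR). It passed with DESeq2 (adjusted p = 0.0162) and without VSG replicate 5, the highest VSG library (-2.46, adjusted p = 0.0179).

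Genes that clear, export or modify corticosteroids were set beside these. Of the 7 genes of corticosteroid metabolism and handling listed, 6 were tested, H6pd rose and 3 fell, against 14.7% of all genes that passed, with a median log2 fold change of -1.18. This list also counts H6pd, Hsd11b2 and the receptor gene Nr3c2, which are described above. Abcb1a, an efflux pump that exports steroids among other substrates, was 24.1, 19.3 and 22.5 CPM in sham replicates 1, 2 and 3, and 4.16, 2.61 and 2.43 CPM in VSG replicates 4, 5 and 6. Each VSG library was below the lowest sham library by a wide margin, and the log2 fold change was -2.84 (SE 0.230, adjusted p = 0.00273, edgeR). Abcb1a passed under all 14 alternatives, and its log2 fold change was -1.68 with limma on log2(FPKM + 1), where the added 1 shrinks differences of low genes.

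Cyp3a11, a cytochrome P450 that hydroxylates steroids and drugs, fell from 1798 ± 327 CPM to 263 ± 190 CPM (log2 fold change -2.77, adjusted p = 0.0216, edgeR). Akr1d1, the reductase that starts the breakdown of steroids with this ring structure and also serves bile acid synthesis, fell from 224 ± 74.6 CPM to 80.8 ± 27.7 CPM (log2 fold change -1.47, adjusted p = 0.0341, edgeR). Leaving out sham replicate 2 or 3 or VSG replicate 6 ended both calls, with adjusted p from 0.0531 to 0.112, and leaving out VSG replicate 4 ended that of Akr1d1 (adjusted p = 0.0563). Without VSG replicate 5, its highest VSG library, the log2 fold change of Cyp3a11 was -3.56. Srd5a1, another steroid reductase, had a log2 fold change of -0.88 that did not pass (adjusted p = 0.145, edgeR).

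The receptor binds DNA as a pair, at the letters AGAACA and TGTTCT set apart by 3 bases, each the reverse complement of the other. Those letters were searched on both strands in RefSeq promoter windows of 300 bases (GRCm38.p6, 250 bases before to 50 after a transcript's start). Of the members, 7 had a window, 15 windows in all, and Nr3c1, Serpina6 and Zbtb16 had none. The whole element was in 1 of the 15 member windows and in 3 of all 32851 windows (0.00913%). The stretch below is shown because it holds the only whole element among the members, 189 bases before an Sgk1 start that lies inside the gene as annotated, with the 12 fixed bases and the 3 between them in capitals.
Sgk1 chr10:21993640-21993776: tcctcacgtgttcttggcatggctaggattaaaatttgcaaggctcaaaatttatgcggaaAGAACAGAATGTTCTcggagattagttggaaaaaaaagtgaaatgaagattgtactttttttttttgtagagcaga

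A single 6-base site on either strand was in 4 of the 15 member windows and in 19.0% of all windows, so it is common. The 3 windows below hold single sites and no whole element, and the capitals mark the 6 bases. They lie 195 and 13 bases before 2 other Sgk1 starts and 185 bases before a Tsc22d3 start, the last read on the minus strand. The fourth is the window of the whole element, which is made of a pair of such sites, while a further site lies 242 bases before the start and is left in lower case.
Sgk1 chr10:21881977-21882006: aagggaatccgtTGTTCTgtgttttctgtg
Sgk1 chr10:21992198-21992222: aaagtgggactcAGAACAgaaaggc
Tsc22d3 chrX:140600690-140600719: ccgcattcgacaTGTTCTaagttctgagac

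These matches describe letters in short windows and no binding was measured. Windows further from the start were not searched, since no genome sequence was used here. The counts are per gene and cannot tell the starts of Sgk1 or Tsc22d3 apart.

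Sgk1 (chr10:21882184-21999903, plus strand) encodes a kinase that raises sodium transport and is rapidly induced by corticosteroids. Its level was 35.5, 82.9 and 34.2 CPM in sham replicates 1, 2 and 3, and 23.03, 20.9 and 23.1 CPM in VSG replicates 4, 5 and 6. The 3 VSG libraries were nearly equal, between 485 and 509 counts each, and all sham libraries were higher, sham replicate 2 most of all. Sgk1 averaged 50.9 ± 27.8 CPM after the sham operation and 22.3 ± 1.28 CPM after VSG (SD, n = 3), a level 2.27-fold lower. Its log2 fold change of -1.19 (SE 0.349, 95% interval -2.01 to -0.36) just missed the threshold (adjusted p = 0.0654, edgeR).

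Sgk1 passed with DESeq2 (adjusted p = 0.00791), with unscaled library totals (adjusted p = 0.0238) and with the filter relaxed to 1 count (adjusted p = 0.0245). It also passed without sham replicate 2, where the difference was smaller and the sham libraries closer together (-0.64, adjusted p = 0.0330). In each of the other 5 fits without a library it did not pass.

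Per1 (chr11:69095217-69109960, plus strand) encodes a repressor of the circadian clock and is also induced directly by glucocorticoids. Its level was 35.5, 56.2 and 37.6 CPM in sham replicates 1, 2 and 3, and 10.00, 17.95 and 33.4 CPM in VSG replicates 4, 5 and 6. The VSG libraries spread from far below the sham libraries, in VSG replicate 4, to just below them, in VSG replicate 6. For Per1 the log2 fold change was -1.07 (SE 0.422, 95% interval -2.08 to -0.07, adjusted p = 0.127, edgeR), and it stayed negative in each fit without a library, from -1.62 to -0.74.

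Tsc22d3 (chrX:140539528-140600659, minus strand) encodes GILZ, the glucocorticoid-induced leucine zipper, which damps inflammatory signalling. Its level was 68.9, 210 and 103 CPM in sham replicates 1, 2 and 3, and 46.02, 57.8 and 109 CPM in VSG replicates 4, 5 and 6. VSG replicate 6 was above 2 of the sham libraries, so the groups overlapped. Tsc22d3 had a log2 fold change of -0.84 (SE 0.477, adjusted p = 0.253, edgeR), and it was -0.28 without sham replicate 2.

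Fkbp5 (chr17:28399094-28517527, minus strand) encodes a co-chaperone that lowers the receptor's affinity for hormone and so feeds back on it. Its level was 31.4, 129 and 76.6 CPM in sham replicates 1, 2 and 3, and 91.5, 66.3 and 77.8 CPM in VSG replicates 4, 5 and 6. The 3 VSG libraries lay close together inside a sham range that was 4.10 times from lowest to highest. The means were 78.99 ± 48.8 CPM and 78.6 ± 12.6 CPM (SD, n = 3), and the log2 fold change was -0.01 (95% interval -1.08 to 1.07, adjusted p = 0.992, edgeR). A change of up to about 2-fold either way therefore lies within the interval, and the sign turned positive in 5 of 14 alternatives, most of all without sham replicate 2 (0.54).

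Zbtb16 (chr9:48654297-48836222, minus strand), which encodes the zinc finger repressor PLZF, was the most variable member among sham mice. Its level was 6.76, 39.8 and 75.1 CPM in sham replicates 1, 2 and 3, and 28.7, 12.7 and 13.6 CPM in VSG replicates 4, 5 and 6. Sham replicate 1 was the lowest library and sham replicate 3 the highest, 11.1 times apart. The log2 fold change of -1.14 (SE 0.770, adjusted p = 0.329, edgeR) was -0.35 without sham replicate 3 and reached -1.66 without sham replicate 1, and it did not pass in either fit.

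Klf9 (chr19:23141226-23168134, plus strand) encodes a zinc finger factor that represses other hormone-induced genes. Its level was 154, 173 and 133 CPM in sham replicates 1, 2 and 3, and 157, 266 and 197 CPM in VSG replicates 4, 5 and 6. VSG replicate 4 lay within the sham range and the other two VSG libraries above it. Klf9 had a log2 fold change of 0.43 (SE 0.212, adjusted p = 0.205, edgeR), and 0.18 without VSG replicate 5, the highest library.

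Cebpb (chr2:167688915-167690418, plus strand), a single-exon gene, encodes a transcription factor of gluconeogenic and acute phase genes. Its level was 49.6, 128 and 53.99 CPM in sham replicates 1, 2 and 3, and 49.05, 43.3 and 76.7 CPM in VSG replicates 4, 5 and 6. The VSG range covered both lower sham libraries and stayed below sham replicate 2. Cebpb had a log2 fold change of -0.45 (SE 0.405, adjusted p = 0.459, edgeR), and 0.12 without sham replicate 2. Of its 1504 exon bases, 312 lie opposite exons of Tmem189 on the other strand, which had 2576 counts over the 6 libraries, and the strand setting of the counting was not given, so a part of either gene's reads could belong to the other. No other member shared exon bases with another gene.

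**Figure D2:**
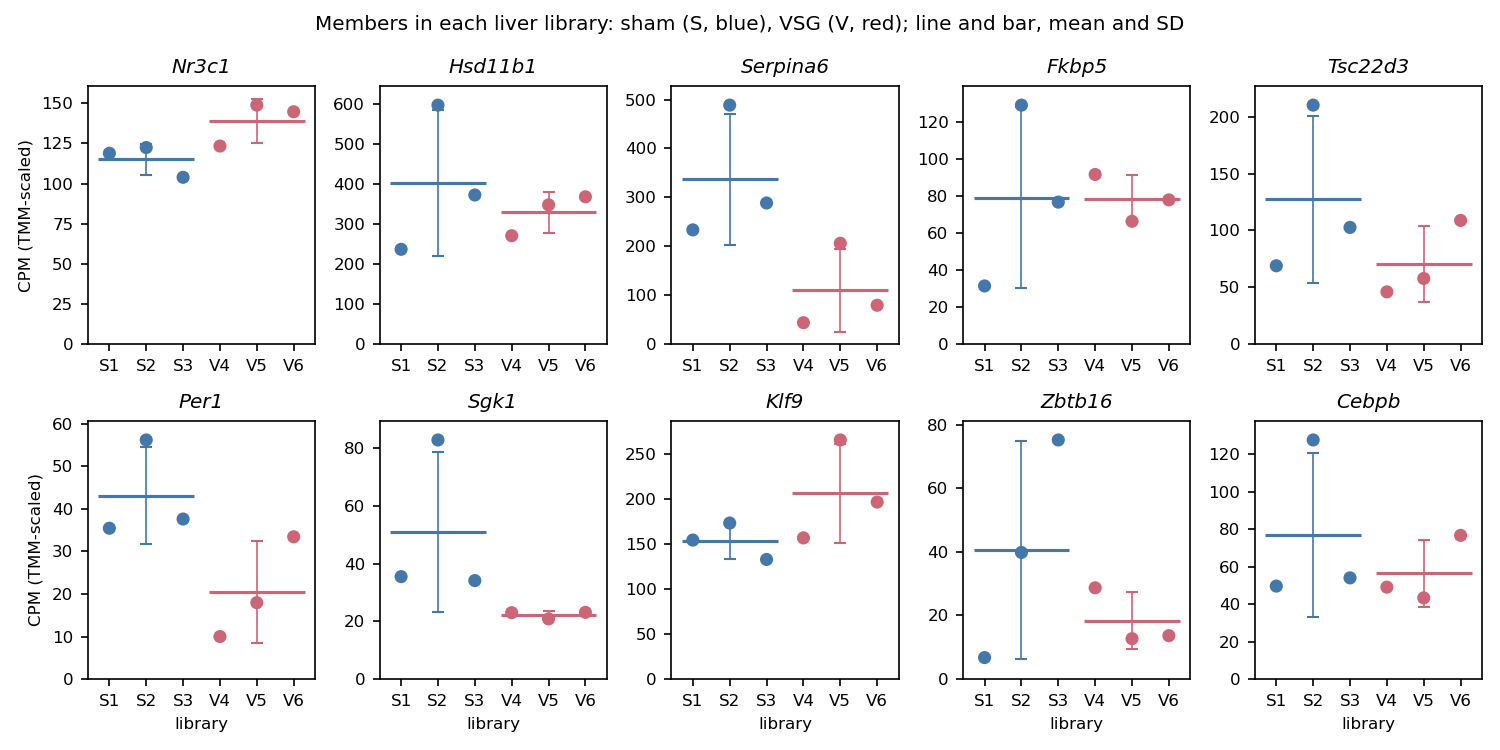
CPM of each member in each library. Points are the 3 sham (S, blue) and 3 VSG (V, red) libraries, horizontal lines the group means and bars the SD. The groups do not overlap for Nr3c1, Serpina6, Per1 and Sgk1, and sham replicate 2 is the highest sham point in every panel but Zbtb16.

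Among the sham mice, most members were highest in the same library. Sham replicate 2 was the highest of the 3 sham libraries for 9 of 10 members, the exception being Zbtb16. This pattern was picked out after the values were seen and is given as a description. Over all genes tested, sham replicate 2 was the highest sham library in 40.8%. Its level was 1.91 times the mean of the other two sham libraries in the median member and 1.01 times in the median gene. Among 27 other genes known to be induced by glucocorticoids, it was the highest sham library for 20 (74.1%), with a median ratio of 1.74.

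Against the mean of the other two sham libraries, the level in sham replicate 2 was 0.972 times for Zbtb16, 1.10 times for Nr3c1 and 1.21 times for Klf9, and it was highest for Cebpb and Tsc22d3, at 2.46 and 2.45 times. Sham replicate 1 was the lowest of the sham libraries for Hsd11b1, Serpina6, Fkbp5, Tsc22d3, Per1, Zbtb16 and Cebpb. Sham replicate 2 also had the highest mitochondrial share of all libraries, 6.58%, and the highest summed level of hepatocyte markers, 115978 CPM. By marker, it was the highest sham library for Alb, Ttr, Apoa1, Apoa2, Hnf4a, Cps1 and Cyp2e1, but not for Fgb and Ass1. This split by marker was described after the values were seen. Among the sham libraries, sham replicate 2 had the lowest summed levels of neutrophil (7.67 CPM), macrophage (508 CPM), stellate cell (661 CPM) and bile duct markers (57.9 CPM). The part of these values in the pattern was not tested.

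**Figure D3:**
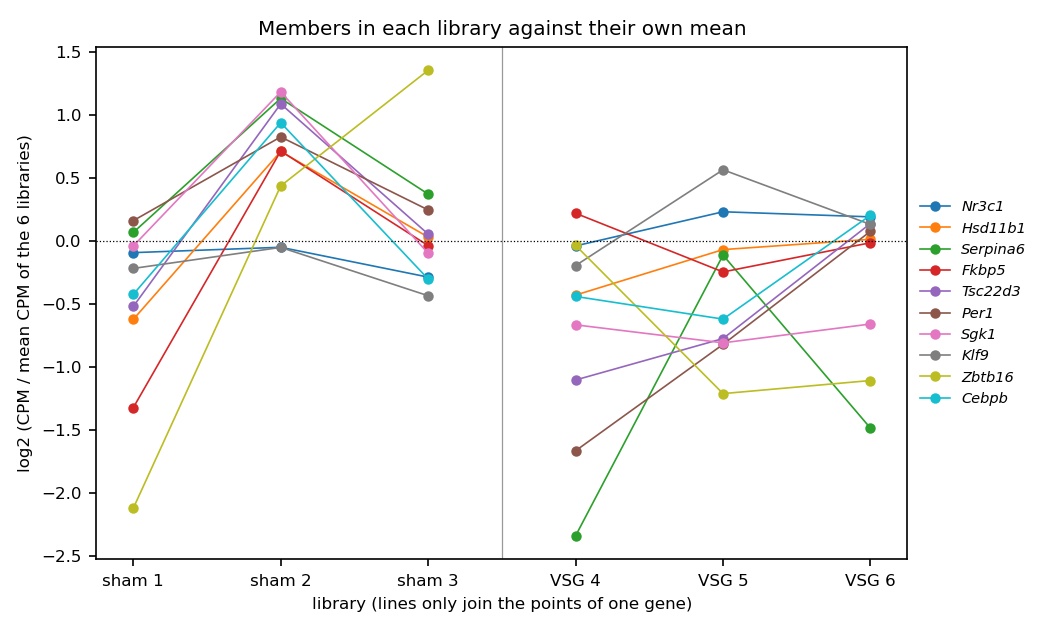
Log2 of each member's CPM over its own mean of the 6 libraries. Points are libraries, coloured by gene, and the lines only join points of a gene. In sham replicate 2, 8 members lie above their own mean and Nr3c1 and Klf9 lie just below it, while the VSG libraries show no common highest library.

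On a scale per length (FPKM), Serpina6 and Hsd11b1 were the most abundant members. In sham livers the order of the mean levels was Serpina6 (191 FPKM), Hsd11b1 (94.6 FPKM), Cebpb (51.2 FPKM), Klf9 (31.9 FPKM), Tsc22d3 (29.3 FPKM), Nr3c1 (14.98 FPKM), Sgk1 (10.4 FPKM), Fkbp5 (8.34 FPKM), Zbtb16 (7.68 FPKM) and Per1 (7.65 FPKM). The ranges of every pair of neighbours in that order overlapped.

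In VSG livers Hsd11b1 (77.4 FPKM) stood before Serpina6 (62.5 FPKM), followed by Klf9 (42.9 FPKM) and Cebpb (37.5 FPKM), whose ranges overlapped from each to the next. Nr3c1 (18.1 FPKM) and Tsc22d3 (16.3 FPKM) overlapped each other and lay apart from Cebpb above and Fkbp5 (8.30 FPKM) below. Sgk1 (4.56 FPKM), Per1 (3.63 FPKM) and Zbtb16 (3.47 FPKM) came last, with Sgk1 apart from Fkbp5.

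The partners of the receptor protein were examined next, as lists of chaperones and coregulators. Of 12 chaperones and co-chaperones, 2 fell, none rose and 10 did not pass, a share near the 14.7% of all genes that passed, with a median log2 fold change of -0.26. Ppp5c, a phosphatase found in receptor complexes, had 36.2, 45.8 and 42.7 CPM against 28.4, 32.02 and 29.7 CPM in the 3 sham and 3 VSG libraries, a log2 fold change of -0.47 (adjusted p = 0.0407, edgeR). Bag1, a co-chaperone of Hsp70, had 58.8, 69.5 and 62.8 CPM against 45.2, 51.1 and 43.03 CPM, a log2 fold change of -0.46 (adjusted p = 0.0384, edgeR). Leaving out sham replicate 2 or 3 or VSG replicate 4 or 6 ended both calls, with adjusted p from 0.0894 to 0.146, and leaving out sham replicate 1 ended that of Bag1 (adjusted p = 0.0565).

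Fkbp4, the co-chaperone that competes with Fkbp5 and favours hormone binding, was 91.8, 133 and 115 CPM in sham replicates 1, 2 and 3, and 44.8, 86.4 and 77.1 CPM in VSG replicates 4, 5 and 6. The groups did not overlap, but Fkbp4 missed the threshold with a log2 fold change of -0.70 (SE 0.260, adjusted p = 0.111, edgeR). Hsp90aa1, the inducible Hsp90, was 25.7, 28.6 and 27.9 CPM against 25.5, 26.97 and 49.1 CPM. Its log2 fold change of 0.30 (adjusted p = 0.426, edgeR) rested on VSG replicate 6, the highest library, and was -0.06 without it.

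Genes of the coregulator list split in direction. Of 14 tested, 4 rose, 3 fell and 7 did not pass, against 14.7% of all genes that passed, with a median log2 fold change of 0.23. Ncoa6, Crebbp and Ep300, a coactivator and a pair of acetyltransferases, rose by log2 0.50, 0.38 and 0.37 (adjusted p = 0.0170, 0.0435 and 0.0393, edgeR). None of these 3 rises passed with unscaled library totals, where adjusted p ran from 0.0981 to 0.265. Neither Crebbp nor Ep300 passed with limma on log2(FPKM + 1) (adjusted p = 0.0669 and 0.0513) or with the filter relaxed to 1 count (adjusted p = 0.109 and 0.128). Crebbp and Ep300 did not pass in any fit without a library (adjusted p from 0.0580 to 0.143), nor Ncoa6 without sham replicate 3 or VSG replicate 6 (adjusted p = 0.0937 and 0.0741). The fourth gene that rose was Med1, a Mediator subunit (0.33, adjusted p = 0.0429, edgeR), named after its values were seen.

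The genes of the coregulator list that fell were Tsc22d1, Smarca4 and Ppargc1a. Tsc22d1 is a relative of Tsc22d3 and was counted in this list, though it is not an established coregulator of the receptor. Its level was 81.5, 105 and 120 CPM in sham replicates 1, 2 and 3, and 18.8, 30.6 and 32.9 CPM in VSG replicates 4, 5 and 6. It fell by log2 1.90 (SE 0.245, adjusted p = 0.00962, edgeR). Smarca4, the ATPase of a chromatin remodelling complex that the receptor recruits, was 97.8, 103 and 101 CPM in sham replicates 1, 2 and 3, and 65.97, 62.7 and 65.4 CPM in VSG replicates 4, 5 and 6. The libraries of each group lay within a few CPM of each other, and the log2 fold change was -0.64 (SE 0.0841, adjusted p = 0.0101, edgeR).

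Ppargc1a, the coactivator of gluconeogenic and mitochondrial genes, fell from 20.9 ± 3.89 CPM to 12.1 ± 2.02 CPM (log2 fold change -0.79, adjusted p = 0.0371, edgeR). Without sham replicate 3 none of the 3 passed, with adjusted p from 0.0519 for Tsc22d1 to 0.131 for Ppargc1a. Smarca4 also missed the threshold without VSG replicate 6 (adjusted p = 0.0569), and Ppargc1a when sham replicate 2 or VSG replicate 4 or 6 was left out (adjusted p from 0.0776 to 0.0969).

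Other genes induced by glucocorticoids went both ways, as the plot of fold changes by list shows. Of 27 tested, 4 rose, 1 fell and 22 did not pass, with 19 negative log2 fold changes, 8 positive and a median of -0.33. The groups did not overlap in 12 of the 27, against 39.7% of all genes tested, and 5 of 27 passed, against 14.7% of all genes tested.

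The genes of the list that rose were Mt2, Mt1, Lcn2 and Anxa1. Mt2, a metallothionein that binds zinc and copper, was 56.4, 73.2 and 17.4 CPM in sham replicates 1, 2 and 3, and 354, 209 and 379 CPM in VSG replicates 4, 5 and 6, a log2 fold change of 2.68 (SE 0.530, adjusted p = 0.0246, edgeR). Its neighbour Mt1, named after its values were seen, was 88.5, 114 and 29.4 CPM against 389, 273 and 389 CPM (log2 fold change 2.18, adjusted p = 0.0307, edgeR). Lcn2, an iron-siderophore-binding protein made by hepatocytes in the acute phase and by neutrophils, was 204, 75.3 and 129 CPM in sham replicates 1, 2 and 3, and 6621, 527 and 4062 CPM in VSG replicates 4, 5 and 6, with a log2 fold change of 4.78 (adjusted p = 0.0249, edgeR). Anxa1, a mediator that limits neutrophil entry into tissue, was 12.7, 7.58 and 8.85 CPM against 91.04, 16.8 and 37.2 CPM (log2 fold change 2.31, adjusted p = 0.0458, edgeR). Without VSG replicate 4 the log2 fold change was 4.08 for Lcn2 and 1.47 for Anxa1. For both Lcn2 and Anxa1 the order of the VSG libraries was replicate 4, then 6, then 5, which was also the order of their neutrophil markers. The part of neutrophils in these values was not tested.

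Pdk4, the kinase that shuts down pyruvate dehydrogenase in fasting, was the gene of this list that fell. It was 19.5, 40.1 and 18.8 CPM in sham replicates 1, 2 and 3, and 4.62, 6.88 and 4.58 CPM in VSG replicates 4, 5 and 6, a log2 fold change of -2.28 (SE 0.350, adjusted p = 0.0142, edgeR), and -1.68 with limma on log2(FPKM + 1). Anxa1 did not pass with limma-voom or limma on log2(FPKM + 1) (adjusted p = 0.0913 and 0.0786). Without VSG replicate 6, Lcn2, Mt2, Anxa1 and Pdk4 did not pass (adjusted p from 0.0695 to 0.105). Without sham replicate 1, Lcn2, Mt2 and Anxa1 did not (adjusted p from 0.0562 to 0.0833), without sham replicate 2, Lcn2 and Anxa1 did not (0.0766 and 0.126), and without VSG replicate 4, Mt2 and Anxa1 did not (0.0511 and 0.0633). Without sham replicate 3, Pdk4 came to lie at the threshold and just missed it (-2.48 on the log2 scale), and Lcn2 and Anxa1 did not pass (0.117 and 0.163).

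Tat, Tdo2, Pck1 and G6pc, classic hepatic targets of the hormone, did not pass. Tat, tyrosine aminotransferase, was 607, 1791 and 555 CPM in sham replicates 1, 2 and 3, and 781, 918 and 1009 CPM in VSG replicates 4, 5 and 6. Sham replicate 2 was again far above every other library, the 3 VSG libraries lay above the other two sham libraries, and the log2 fold change was -0.12 (adjusted p = 0.868, edgeR) with all libraries and 0.63 without sham replicate 2. Tdo2, the first enzyme of tryptophan breakdown, had 1266, 2062 and 1557 CPM against 1183, 1563 and 1087 CPM (log2 fold change -0.35, adjusted p = 0.357, edgeR). Pck1, an enzyme of gluconeogenesis, had 1884, 3835 and 1920 CPM against 1124, 2076 and 2438 CPM (log2 fold change -0.44, adjusted p = 0.470, edgeR). In fits without a library, the log2 fold change ran from -0.54 to -0.15 for Tdo2 and from -0.67 to -0.02 for Pck1.

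G6pc, which releases glucose from glucose 6-phosphate, was 174, 496 and 227 CPM in sham replicates 1, 2 and 3, and 23.4, 117 and 48.8 CPM in VSG replicates 4, 5 and 6. The groups did not overlap, and the log2 fold change of -2.25 (SE 0.653) was near the threshold (adjusted p = 0.0636, edgeR). G6pc passed with DESeq2 (adjusted p = 0.0307), unscaled library totals (0.0419), the filter relaxed to 1 count (0.0221) and without VSG replicate 5 (-3.06, adjusted p = 0.0220).

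**Figure D4:**
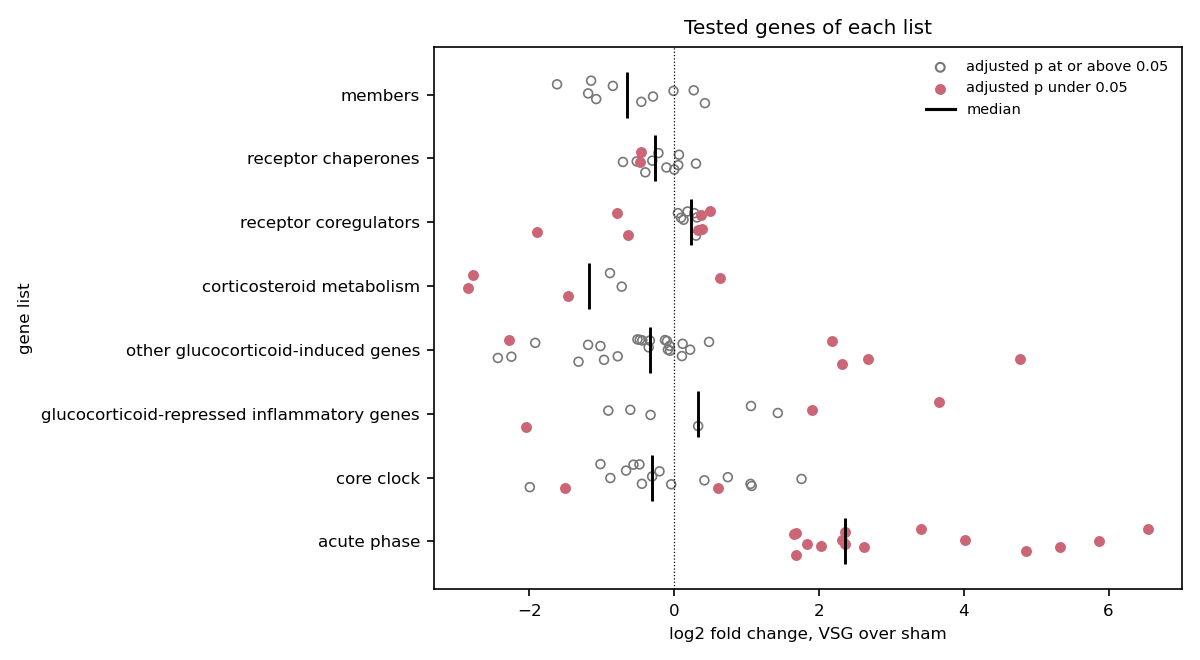
Log2 fold change, VSG over sham, of the tested genes of each list. Filled points passed the test (edgeR, adjusted p under 0.05), open points did not, and vertical lines mark the list medians. The 10 members are all open points with a median of -0.65 in the fit with all libraries. In the fit without sham replicate 2, not shown here, Hsd11b1, Fkbp5 and Cebpb turned positive. The 15 acute phase genes are all filled points on the positive side.

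Since Per1 is also a clock gene, 17 core clock genes were set beside it. Of these 1 rose, 1 fell and 15 did not pass, a share no higher than the 14.7% of all genes that passed, with a median log2 fold change of -0.30. Clock, the partner of Bmal1, rose by log2 0.60 (adjusted p = 0.0216, edgeR). It did not pass with unscaled library totals (adjusted p = 0.0740), nor when sham replicate 2 or 3 or VSG replicate 6 was left out (adjusted p from 0.0585 to 0.0907).

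Per2, like Per1 a repressor that glucocorticoids induce, was 43.1, 59.7 and 70.7 CPM in sham replicates 1, 2 and 3, and 16.1, 29.9 and 39.8 CPM in VSG replicates 4, 5 and 6. The groups did not overlap, in the same direction as for Per1, and the log2 fold change was -1.02 without passing (SE 0.336, adjusted p = 0.0870, edgeR). It passed with DESeq2, unscaled library totals and the filter relaxed to 1 count (adjusted p = 0.0273, 0.0443 and 0.0450). Arntl, which encodes Bmal1, was 4.73, 2.97 and 2.55 CPM in sham replicates 1, 2 and 3, and 20.2, 7.99 and 6.63 CPM in VSG replicates 4, 5 and 6, and its log2 fold change of 1.76 just missed the threshold (adjusted p = 0.0526, edgeR). Arntl passed with DESeq2, the filter relaxed to 1 count and without VSG replicate 5 (adjusted p = 0.00261, 0.0206 and 0.0434), and its log2 fold change was 1.10 without VSG replicate 4 and 0.74 with limma on log2(FPKM + 1).

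Nr1d1, which encodes the repressor of Arntl, was 91.1, 33.7 and 60.1 CPM against 116, 181 and 92.1 CPM (log2 fold change 1.07, adjusted p = 0.110, edgeR), and passed with DESeq2 (adjusted p = 0.0432). Dbp, a rhythmic output factor, was 97.1, 79.99 and 99.2 CPM against 25.1, 96.2 and 53.3 CPM (log2 fold change -0.66, adjusted p = 0.314, edgeR). Dbp passed without VSG replicate 5 (-1.25, adjusted p = 0.0463, edgeR). Its smallest difference in a fit without a library was -0.30, which did not pass. The levels of these clock genes move through the day in liver, as do those of Per1 and of the hormone itself, and the time of collection was not given, so time of day was not tested as a part of any of these values.

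Of 12 inflammatory genes known to be repressed by glucocorticoids, 9 were tested, 2 rose, 1 fell and 6 did not pass, against 14.7% of all genes that passed, with a median log2 fold change of 0.33. Cxcl1, a chemokine that draws neutrophils, was 16.99, 9.23 and 13.3 CPM in sham replicates 1, 2 and 3, and 350, 28.9 and 121 CPM in VSG replicates 4, 5 and 6 (log2 fold change 3.66, adjusted p = 0.0360, edgeR). Il1b, an inflammatory cytokine, was 5.72, 2.42 and 2.77 CPM against 14.98, 8.21 and 17.8 CPM (log2 fold change 1.90, adjusted p = 0.0314, edgeR). Cxcl10, a chemokine induced by interferon, fell from 17.4 ± 6.92 CPM to 4.24 ± 0.350 CPM (log2 fold change -2.04, adjusted p = 0.0114, edgeR). Without VSG replicate 4, its highest library, the log2 fold change of Cxcl1 was 2.501. Cxcl1 did not pass with limma-voom or limma on log2(FPKM + 1) (3.06 and 2.90, adjusted p = 0.0607 and 0.0678). None of the 3 passed without VSG replicate 6 (adjusted p from 0.0596 to 0.104), and neither Cxcl1 nor Il1b did when sham replicate 2 or 3 or VSG replicate 4 was left out (from 0.0535 to 0.141), nor Cxcl1 without sham replicate 1 (0.0806).

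Acute phase genes, which the receptor and Cebpb help to induce together with cytokine signals, rose in 15 of 15 tested. Of all genes tested, 6.79% rose. The median log2 fold change of the acute phase list was 2.36, and this list was chosen with earlier results of these data known. Saa1, the serum amyloid A precursor, went from 131 ± 47.9 CPM to 7677 ± 4586 CPM (log2 fold change 5.87, adjusted p = 0.00783, edgeR). Saa2 rose by log2 6.54 and Orm2 by log2 5.33 (adjusted p = 0.00809 and 0.0216, edgeR). In Saa2 the VSG libraries were at 11917, 2072 and 8063 CPM and the sham libraries at or under 108 CPM. Without sham replicate 3 these 3 genes did not pass (adjusted p = 0.0549, 0.0556 and 0.109), nor did Orm2 without sham replicate 2 or VSG replicate 6 (0.0637 and 0.0770). Orm2 reached log2 5.94 without sham replicate 1.

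Markers of other cells differed between the groups as well, and their part in the values of the members was not tested. Beside their counts, 6.79% of all genes tested rose and 7.87% fell. The marker lists too were chosen with earlier results of these data known. All 13 neutrophil markers rose, and their summed level was 7.67 to 22.97 CPM in sham and 164 to 1905 CPM in VSG libraries. Mpo was at 0.554, 0 and 0.0380 CPM in the sham libraries and at 149, 5.86 and 87.6 CPM in the VSG libraries, and S100a8 at most at 3.29 CPM in sham and at 426, 31.2 and 180 CPM in VSG libraries.

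Of 12 macrophage markers, 4 rose and 8 did not pass, with a summed level of 508 to 1152 CPM in sham and 1054 to 3038 CPM in VSG libraries. Clec4f, of Kupffer cells, rose by log2 1.23 (adjusted p = 0.0260, edgeR), while Adgre1, a general macrophage marker, did not pass (0.68, adjusted p = 0.308, edgeR). Of 10 stellate cell markers, 2 fell and 8 did not pass, with a summed level of 661 to 1035 CPM in sham and 325 to 636 CPM in VSG libraries, the 2 being Reln and Tagln, named after their values were seen. Lrat, whose enzyme makes the stored form of vitamin A, had 46.97, 46.1 and 43.8 CPM against 12.4, 29.5 and 26.5 CPM and did not pass (adjusted p = 0.0667, edgeR).

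The B cell list had 2 of 7 tested markers higher, Jchain and Ighm, with a summed level of 23.1 to 29.9 CPM in sham and 150 to 196 CPM in VSG libraries. None of 10 T and NK cell markers passed (summed level 9.59 to 10.2 CPM in sham and 9.02 to 16.9 CPM in VSG libraries, Cd3e between 0.855 and 2.22 CPM), and none of 9 endothelial markers (362 to 424 CPM and 371 to 443 CPM, Stab2 between 84.5 and 104 CPM). Of 5 bile duct markers, 1 rose (57.9 to 255 CPM in sham and 73.6 to 200 CPM in VSG libraries), and Krt19 was at or under 1.48 CPM. Of the 9 hepatocyte markers found, 1 rose, the fibrinogen gene Fgb, which is also on the acute phase list.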

How the data were processed

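Liver poly(A) RNA was measured in 6 mice, 3 sham and 3 VSG, grouped by sample titles. Per the study's methods and the submitters' processing notes, the authors made strand-specific libraries, checked reads with FastQC 0.10.1, aligned them with STAR 2.6.0 to mm10 and counted them with featureCounts. Which annotation release and strand setting were used, and how multi-mapping reads were treated, is not given in the sources used here. The deposited values are raw counts per gene, with the summed exon length of each gene, used here only for FPKM (counts per length and TMM-scaled library size). Symbols came from GENCODE M21 (GRCm38), matched for 55144 of 55385 genes.

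Genes were filtered with filterByExpr (minimum count 10, minimum total 15), scaled by TMM (factors 0.897 to 1.15) and tested with the quasi-likelihood test of edgeR 4.0.16 in R 4.3.3 with group as the only term, with Benjamini-Hochberg adjustment over 14454 genes. Scripts were tested on simulated data. The same comparison was also fitted with DESeq2 1.42.0, limma-voom (limma 3.58.1), limma on log2(FPKM + 1), a prior count of 2, RLE size factors, unscaled library totals (no composition factors), the filter relaxed to 1 count or tightened to 10 counts in all libraries, and fits without each library in turn.

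The members and lists were chosen with earlier results of these data known. Named genes were the 10 members, up to 3 higher and 3 lower passing genes of each of 7 lists (largest log2 fold change, mean of at least 1 CPM), a fixed set of further genes of the pathway and defining cell markers. Some listed genes are counted but not reported here by name. Within a group, no pair of libraries differed by as little as counting noise (chi-square per degree of freedom at least 27.5). The labels do not say that each library is a separate animal's, while the study's methods do. With 3 against 3, the smallest p of an exact two-sided permutation test is 0.1, and none was run. The limit for a count of 0 covers counting error only.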

Additional observations from a re-analysis of the deposited data

How the results depend on the processing

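No paired analysis was possible because the replicate numbers 1 to 3 and 4 to 6 are not shared between the groups. Members passing the test numbered 0, but 2 with DESeq2, 1 with unscaled library totals, 1 with the filter relaxed to 1 count, and 0 to 1 without a library. Of 68 genes of 5 receptor pathway lists, 21 passed (11 higher, 10 lower), against 14.7% of all genes tested. These lists were chosen with earlier results of these data known. Their number passing ran from 2 to 21 without a library, lowest when VSG replicate 6 (2) or sham replicate 3 (4) was left out. Over all genes the number passing was 2118 of 14454, and 3252 of 17381 with DESeq2 and 159 to 2732 without a library. With unscaled library totals 486 genes were higher and 1512 lower, against 981 and 1137. The single 6-base site was in 4 member windows where the whole element was in 1. With 1 mismatch allowed it was also in 1, while over all windows the matches went from 3 to 54 of 32851 (0.164%). Over the 14 alternatives, 133 of 140 member comparisons and 486 of 490 comparisons of 35 other genes of the naming rule kept their direction. Removing a library moved the log2 fold change of Hsd11b1 from -0.57 to 0.11, of Fkbp5 from -0.39 to 0.54, of Cebpb from -0.74 to 0.12 and of Tat from -0.42 to 0.63, each positive value coming without sham replicate 2. Hsp90aa1 ran from -0.063 (without VSG replicate 6) to 0.47. Fkbp5 was also positive at 0.18 (limma-voom), 0.15 (limma on log2(FPKM + 1)), 0.00090 (at least 10 counts per library) and 0.08 (without VSG replicate 5). Tat was 0.066 (limma-voom) and 0.087 (limma on log2(FPKM + 1)). Among 24 genes of the naming rule that passed, the calls lost by leaving out sham replicates 1, 2 and 3 were 8, 15 and 21, and by leaving out VSG replicates 4, 5 and 6 were 11, 2 and 20. The cause was not tested.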
